A study of Homo sapiens with 4 samples.

Results

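The ISG15 conjugation system was followed here as 6 human genes of 24424 measured: the modifier ISG15, the enzymes UBA7, UBE2L6, HERC5 and HERC6, and the protease USP18. The genes were picked by name, with their raised levels in the transfected libraries already known, so their values are given as a description and no test was made of them. RNA came from BEAS-2B, an established line of human bronchial epithelial cells of wild-type genotype. Each group was 1 library. The siOCLN+LPS cells received siRNA against occludin for 24 h and then lipopolysaccharide (LPS, a bacterial cell wall component) for 2 h. The wtOCLN+LPS cells received wild-type occludin for 24 h and then LPS for 2 h. The LPS cells received LPS for 2 h, and the control cells were untreated. The labels of the LPS and control libraries mention no transfection or mock transfection, so an effect of transfection itself cannot be told apart from an effect of the siRNA or of occludin. With no replicate, every difference below is between libraries, and the intervals cover counting error only.

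ISG15 is a small ubiquitin-like protein that interferon induces strongly. It is attached to other proteins by a relay of enzymes: UBA7 is the activating E1 enzyme, UBE2L6 the conjugating E2 enzyme and HERC5 the main E3 ligase in human cells. USP18 removes ISG15 from its targets and also restrains signalling from the type I interferon receptor. In airway epithelium the system is known as part of the antiviral response, and its genes are classic targets of interferon signalling through the interferon-stimulated response element, a short sequence in promoters.

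Promoter sequence is shown because the 6 genes are known interferon targets and were all at their highest in the same library. RefSeq promoter windows (GRCh38.p14, 250 bases before to 50 after the start) were matched by symbol for 4 of the 6 genes: ISG15, UBE2L6, HERC5 and HERC6. UBA7 and USP18 had no entry. The core of the response element was searched on both strands as GAAA, any 2 bases, then GAAA again. The 150 bases before the start are given 5′ to 3′ on the gene's strand, with letters that match the core on either strand in capitals:
ISG15 (chr1:1013347-1013496, plus strand): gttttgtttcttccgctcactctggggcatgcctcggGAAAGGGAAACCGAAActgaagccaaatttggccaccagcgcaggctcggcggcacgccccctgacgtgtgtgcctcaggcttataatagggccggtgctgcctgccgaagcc
HERC5 (chr4:88456969-88457118, plus strand): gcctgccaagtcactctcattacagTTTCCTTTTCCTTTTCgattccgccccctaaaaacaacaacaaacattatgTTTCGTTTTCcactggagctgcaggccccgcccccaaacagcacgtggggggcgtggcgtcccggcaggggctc
HERC6 (chr4:88378702-88378851, plus strand): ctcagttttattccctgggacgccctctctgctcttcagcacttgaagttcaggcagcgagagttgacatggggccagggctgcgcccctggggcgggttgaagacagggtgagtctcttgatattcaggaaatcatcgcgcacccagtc
ISG15 held 2 overlapping matches on its own strand, from -113 to -104 and from -107 to -98 relative to the start. HERC5 held 3 on the opposite strand, from -125 to -116, -119 to -110 and -74 to -65, the first 2 of them overlapping. The longer form, which is the core followed by CT, was present in both windows. Neither the HERC6 window nor either of the 2 UBE2L6 windows held the core, which says only that these letters are not in those windows.

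The core is not common. It was present in 1255 of 35116 RefSeq windows (3.57%), and the longer form in 96 (0.273%). Among other interferon-stimulated genes 27 of 47 windows held the core. Among relatives of the enzymes it was in 0 of 8 windows of other E1 enzymes, 1 of 37 of other E2 enzymes, 0 of 5 of other HERC ligases and 0 of 52 of other ubiquitin-specific proteases. A match is a description of letters and not evidence of binding in these cells.

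The libraries held 17476333 counts (siOCLN+LPS), 17500031 (wtOCLN+LPS), 13867494 (LPS) and 15889736 (control), and levels are given as CPM, the count per 1000000 counts of the library. On that scale 1 count was worth 0.0572 in siOCLN+LPS, 0.0571 in wtOCLN+LPS, 0.0721 in LPS and 0.0629 in control. Occludin itself (OCLN) stood at 21.0 CPM in siOCLN+LPS, 29.7 CPM in wtOCLN+LPS, 50.4 CPM in LPS and 55.4 CPM in control. The wtOCLN+LPS label is therefore used as a name only: against LPS that library had less OCLN, not more (0.588-fold, 0.524 to 0.660), and no direction below is tied to occludin. All 8 epithelial markers were at or above 1 CPM in every library. Their levels summed to 2878 CPM in siOCLN+LPS and 2893 CPM in wtOCLN+LPS, against 1442 CPM in LPS and 1628 CPM in control. The rise was not shared by all 8: in each transfected library 6 were above LPS and 2 below. By log2(CPM + 1) difference over LPS, EPCAM was at -0.699 in siOCLN+LPS and -0.497 in wtOCLN+LPS, and KRT5 at -0.224 and -0.166. Of 10 leukocyte markers 2 were at or above 1 CPM, with sums of 25.8 CPM in siOCLN+LPS, 30.5 CPM in wtOCLN+LPS, 23.4 CPM in LPS and 26.1 CPM in control. Those 2 moved in opposite directions past 2-fold of LPS. CD14, the LPS co-receptor, was at 20.6 CPM in siOCLN+LPS, 22.7 CPM in wtOCLN+LPS, 5.99 CPM in LPS and 8.37 CPM in control. CD68, a lysosomal glycoprotein, was at 4.98 CPM in siOCLN+LPS, 7.49 CPM in wtOCLN+LPS, 16.6 CPM in LPS and 16.6 CPM in control. CD3E and MS4A1 had 0 counts in all 4 libraries, and PTPRC and NKG7 had 0 in the 3 LPS-treated ones. In both transfected libraries the epithelial sum and CD14 were above LPS and control, and CD68 was below both. The epithelial sum and CD14 differed little between siOCLN+LPS and wtOCLN+LPS. Their part in the results below, and that of CD68, was not tested.

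All 6 genes had their highest level in wtOCLN+LPS and their next highest in siOCLN+LPS, while LPS and control lay close together. Calls of higher or lower required log2(CPM + 1) values at least 2-fold apart and a level of at least 1 CPM in 1 of the libraries compared. All 6 genes passed that filter in each of 6 comparisons. In wtOCLN+LPS over LPS 6 of 6 were higher, where 3.32% of 13493 tested genes were. ISG15 and HERC6, 2 of 6, were higher in siOCLN+LPS over LPS, where 3.32% of 13505 were. In siOCLN+LPS over wtOCLN+LPS 4 of 6 were lower, where 0.29% of 13109 were. In LPS over control 0 of 6 passed in either direction, where 1.6% of 13551 were higher and 0.207% lower. The comparisons with LPS as denominator share that library, so their counts are not independent. Since the genes were chosen with these values known, nothing is read from the counts against the background.

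**Figure D1:**
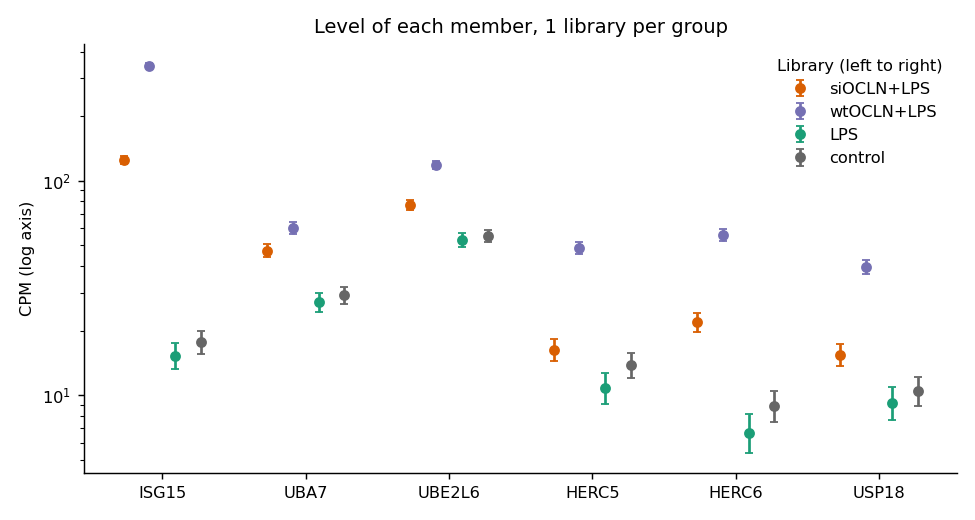
Level of each gene in CPM (log axis) in siOCLN+LPS, wtOCLN+LPS, LPS and control, 1 library each, with exact 95% Poisson intervals for counting error. For every gene wtOCLN+LPS is highest; ISG15 reaches 343 CPM there, against 15.3 CPM in LPS.

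ISG15, the modifier itself, showed the widest range. It was at 125 CPM in siOCLN+LPS (2192 counts), 343 CPM in wtOCLN+LPS (6005 counts), 15.3 CPM in LPS (212 counts) and 17.6 CPM in control (280 counts). Both transfected libraries lay well above both others. The CPM ratio was 8.20-fold in siOCLN+LPS over LPS (exact 95% interval 7.12 to 9.49) and 22.4-fold in wtOCLN+LPS over LPS (19.6 to 25.9). By log2(CPM + 1) difference, 2.96 and 4.40, ISG15 ranked 11th of 13505 and 7th of 13493 tested genes counted from the highest. In siOCLN+LPS the level was 0.366 times that in wtOCLN+LPS (0.348 to 0.384). In bulk RNA a change in the number of cells that make ISG15 and a change in RNA per cell cannot be told apart.

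UBA7, the E1 enzyme that activates ISG15, had the lowest ratio of the 6 genes in wtOCLN+LPS over LPS. It was at 47.1 CPM in siOCLN+LPS, 60.3 CPM in wtOCLN+LPS, 27.0 CPM in LPS and 29.3 CPM in control. The library order matched that of ISG15 over a much narrower range. The ratio was 1.74-fold in siOCLN+LPS over LPS (1.54 to 1.98), short of the 2-fold limit, and 2.23-fold in wtOCLN+LPS over LPS (1.98 to 2.51), just past it. Between siOCLN+LPS and wtOCLN+LPS it was 0.782 (0.713 to 0.858), the ratio nearest to 1 of the 6 genes.

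UBE2L6, the E2 enzyme that carries activated ISG15, was at 77.0 CPM in siOCLN+LPS, 119 CPM in wtOCLN+LPS, 52.9 CPM in LPS and 55.2 CPM in control. Like UBA7 it already had a substantial level in LPS and control. The ratio was 1.45-fold in siOCLN+LPS over LPS (1.33 to 1.59) and 2.24-fold in wtOCLN+LPS over LPS (2.06 to 2.44). In siOCLN+LPS it was 0.649 times the wtOCLN+LPS level (0.606 to 0.696). In the library pair wtOCLN+LPS and LPS, the E1 and E2 enzymes thus had nearly the same fold, whereas that of ISG15 was 10.02 times that of UBE2L6 by an exact odds ratio (8.52 to 11.8).

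HERC5, the ligase that places ISG15 on newly made proteins, was at 16.2 CPM in siOCLN+LPS, 48.6 CPM in wtOCLN+LPS, 10.7 CPM in LPS and 13.8 CPM in control. The wtOCLN+LPS library stood apart from the other 3. The ratio was 1.51-fold in siOCLN+LPS over LPS (1.23 to 1.85) and 4.52-fold in wtOCLN+LPS over LPS (3.79 to 5.42). Against control, siOCLN+LPS was 1.17-fold (0.977 to 1.40), an interval that includes 1. HERC5 had the lowest siOCLN+LPS to wtOCLN+LPS ratio of the 6 genes, at 0.333 (0.290 to 0.382).

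HERC6 is the neighbour and closest relative of HERC5 and the main ISG15 ligase in mouse. It was at 21.9 CPM in siOCLN+LPS, 55.7 CPM in wtOCLN+LPS, 6.63 CPM in LPS and 8.87 CPM in control. It lay well above LPS and control in both transfected libraries. The ratio was 3.29-fold in siOCLN+LPS over LPS (2.62 to 4.18) and 8.39-fold in wtOCLN+LPS over LPS (6.77 to 10.5). The fold of HERC6 exceeded that of HERC5 by 2.19 times in siOCLN+LPS over LPS (1.599 to 2.99) and by 1.86 times in wtOCLN+LPS over LPS (1.40 to 2.47). In siOCLN+LPS over wtOCLN+LPS the ratio of folds was 1.18 (0.981 to 1.42), an interval that includes 1. HERC6 shared 30 of 3732 stretches of 50 bases with HERC3 transcripts (0.804%), and HERC5 shared none with any other gene.

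USP18, the protease that removes ISG15, was at 15.4 CPM in siOCLN+LPS, 39.4 CPM in wtOCLN+LPS, 9.16 CPM in LPS and 10.4 CPM in control. The wtOCLN+LPS library again stood apart from the other 3. The ratio was 1.69-fold in siOCLN+LPS over LPS (1.36 to 2.10) and 4.31-fold in wtOCLN+LPS over LPS (3.56 to 5.24). In siOCLN+LPS it was 0.392 times the wtOCLN+LPS level (0.339 to 0.452). USP18 values are uncertain, because 487 of its 2080 stretches of 50 bases (23.4%) occur in transcripts of other genes, 479 of them in USP41, which was not analysed here, and how such reads were counted is not given in the sources used here.

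**Figure D2:**
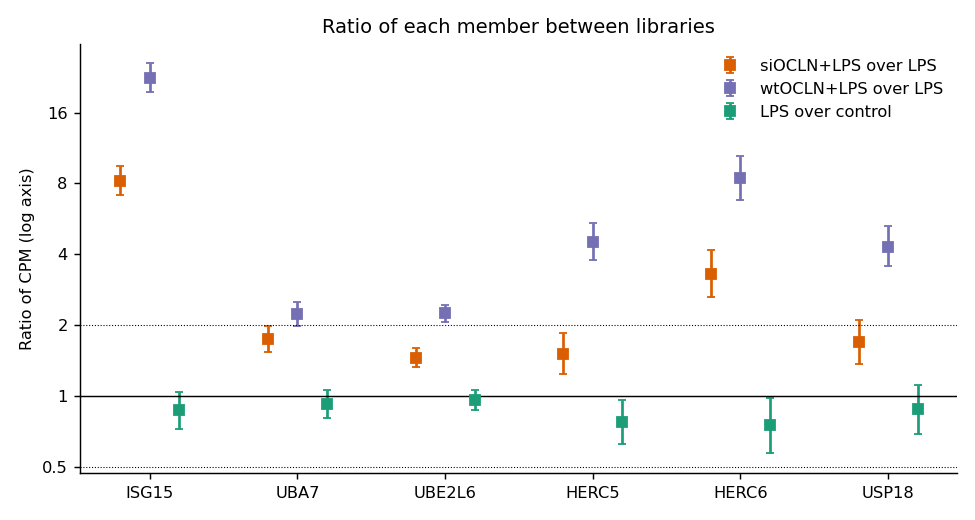
CPM ratios of the 6 genes with exact 95% intervals for counting error (log axis), for siOCLN+LPS over LPS, wtOCLN+LPS over LPS and LPS over control; dotted lines mark 2-fold. ISG15 has the highest ratio over LPS in both transfected libraries (8.20 and 22.4), and the LPS over control ratios run from 0.748 to 0.959.

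LPS alone left the system near its untreated level. Ratios of LPS over control were 0.868 for ISG15 (0.722 to 1.04), 0.924 for UBA7 (0.804 to 1.06), 0.959 for UBE2L6 (0.868 to 1.06) and 0.877 for USP18 (0.690 to 1.11), all with intervals that include 1. By library total HERC5 and HERC6 were lower in LPS at 0.776 (0.626 to 0.960) and 0.748 (0.569 to 0.979), within the 2-fold limit. Other scalings moved them up to 0.830 and 0.799, and intervals were not computed under those scalings. The median log2(CPM + 1) difference of the 6 genes was -0.18, beside -0.09 over all 13551 tested genes, and under other library scalings UBE2L6 reached 1.03. The same LPS library responded elsewhere: all 8 genes of an LPS response list were higher than in control, with a median log2(CPM + 1) difference of 4.94.

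Set against untreated control in place of LPS, the picture was close to the same. ISG15 was 7.12-fold higher in siOCLN+LPS (6.28 to 8.09) and 19.5-fold higher in wtOCLN+LPS (17.3 to 22.03). In siOCLN+LPS 2 of 6 genes were higher, again ISG15 and HERC6 (2.46-fold), where 3.94% of tested genes were. In wtOCLN+LPS 6 of 6 were higher, where 3.91% of tested genes were, with ratios between 2.06 for UBA7 and 19.5 for ISG15.

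**Figure D3:**
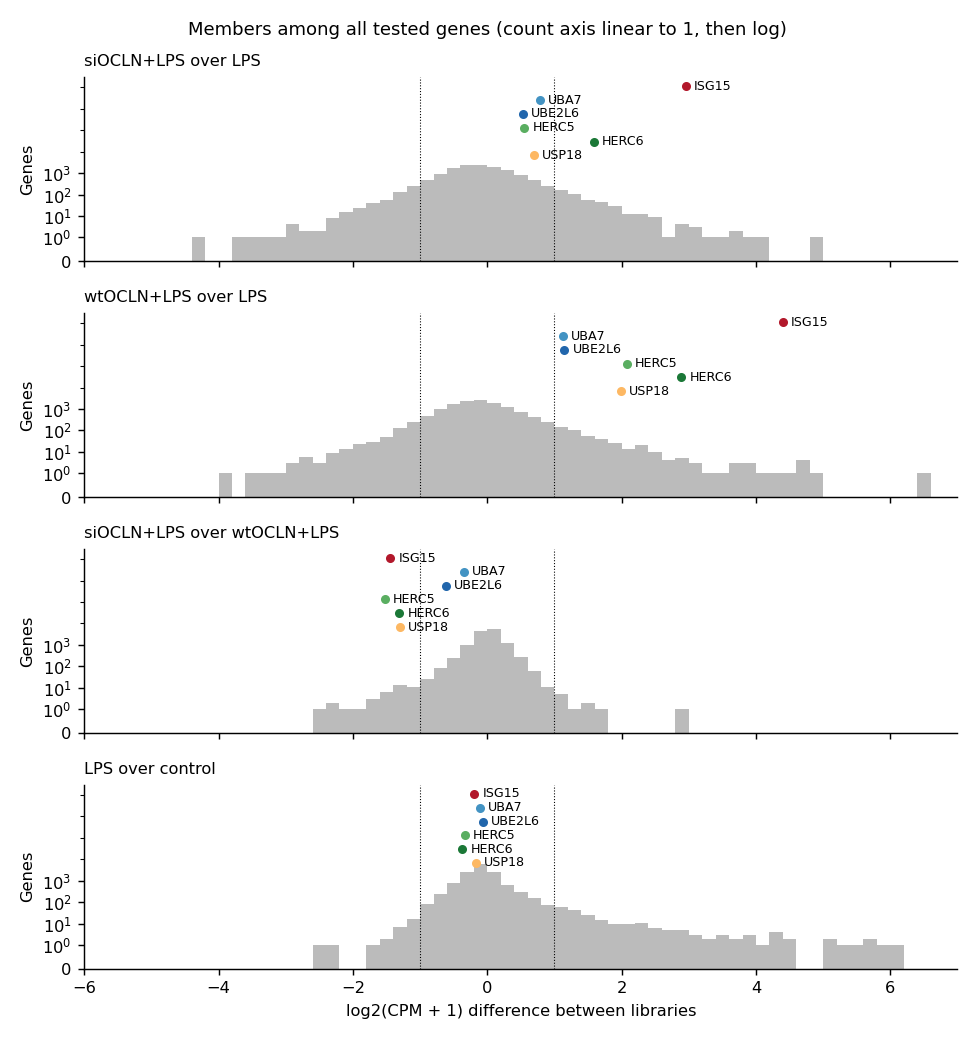
Distribution of log2(CPM + 1) differences over all tested genes (grey; the count axis is linear to 1 and logarithmic above) with the 6 genes as points at their own differences; point height has no meaning and dotted lines mark 2-fold. The points lie right of the bulk in wtOCLN+LPS over LPS (1.13 to 4.40) and within it in LPS over control. In siOCLN+LPS over wtOCLN+LPS they run from -1.53 to -0.35, with UBA7 at the edge of the bulk (95.9% of tested genes higher). In siOCLN+LPS over LPS they run from 0.53 to 2.96, the lowest (UBE2L6) with 10.7% of tested genes higher.

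Across the system the median log2(CPM + 1) difference was 0.74 in siOCLN+LPS over LPS and 2.04 in wtOCLN+LPS over LPS, beside -0.13 and -0.15 over all tested genes. Between siOCLN+LPS and wtOCLN+LPS it was -1.30, beside 0.02. The 4 genes counted as lower there (ISG15, HERC5, HERC6 and USP18) are among 38 such genes. Library scaling matters for the balance of the background: genes counted as higher made up 45.9% of those past 2-fold in siOCLN+LPS over LPS by library total, and 57.9% to 61.5% by other scalings. For wtOCLN+LPS over LPS the shares were 47.4% and 58.5% to 64.9%. Against control they were 42.0% and 64.1% to 68.5% for siOCLN+LPS, and 44.4% and 65.1% to 71.0% for wtOCLN+LPS. The 6 genes stayed above LPS under each scaling, with ISG15 at 8.20 to 9.09-fold in siOCLN+LPS and 22.4 to 25.2-fold in wtOCLN+LPS.

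Because the fold differed between genes, the make-up of the system differed between libraries. The 6 genes summed to 303 CPM in siOCLN+LPS (295 to 311), 666 CPM in wtOCLN+LPS (654 to 678), 122 CPM in LPS (116 to 128) and 135 CPM in control (129.6 to 141). ISG15 supplied 41.4% of these counts in siOCLN+LPS, 51.6% in wtOCLN+LPS, 12.6% in LPS and 13.0% in control. Levels of different genes were compared per length, as CPM per kb of the longest coding GENCODE transcript. On that scale ISG15 was at 159 CPM per kb in siOCLN+LPS, 436 in wtOCLN+LPS, 19.4 in LPS and 22.4 in control. UBE2L6 was at 48.9 CPM per kb in siOCLN+LPS, 75.3 in wtOCLN+LPS, 33.6 in LPS and 35.1 in control. The E2 enzyme was thus the most abundant transcript of the 6 per kb in LPS and control, and ISG15 in both transfected libraries.

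The order of the remaining genes also shifted. In LPS and control it ran UBA7, USP18, HERC5, HERC6 from high to low, and in siOCLN+LPS UBA7, USP18, HERC6, HERC5, each neighbour separated beyond counting error. USP18 values here and below stay uncertain because of its stretches shared with other genes, which counting intervals do not cover. In wtOCLN+LPS USP18 and UBA7 did not differ beyond counting error (18.5 and 18.3 CPM per kb, ratio 1.01, 0.919 to 1.12), nor did HERC6 and HERC5 (14.7 and 13.8 CPM per kb, ratio 1.06, 0.970 to 1.17). The level of the modifier relative to its protease, ISG15 over USP18 per kb, was 21.96 in siOCLN+LPS and 23.5 in wtOCLN+LPS, against 4.52 in LPS and 4.56 in control. The fold of ISG15 over LPS exceeded that of USP18 by 4.86 times in siOCLN+LPS (3.74 to 6.31) and by 5.21 times in wtOCLN+LPS (4.09 to 6.62). Between siOCLN+LPS and wtOCLN+LPS the ratio of folds was 0.933 (0.802 to 1.09), an interval that includes 1.

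**Figure D4:**
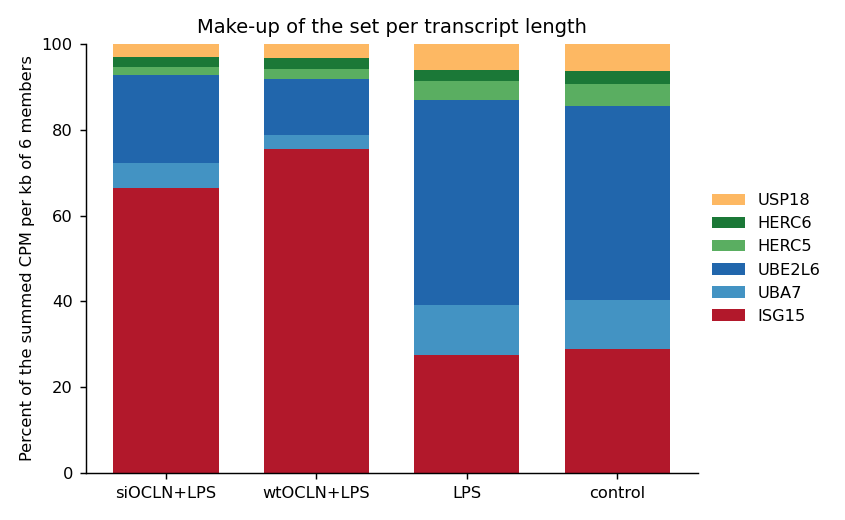
Share of each gene in the summed CPM per kb of the 6 genes, in siOCLN+LPS, wtOCLN+LPS, LPS and control. ISG15 takes 66.3% and 75.6% in the transfected libraries, against 27.6% in LPS and 28.9% in control, where UBE2L6 takes 47.8% and 45.2%.

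The relatives of these genes serve ubiquitin and other modifiers, and nearly all stayed within 2-fold, as most tested genes did. By library total, none of 13 tested ubiquitin-like modifiers, 9 other E1 enzymes, 33 other E2 enzymes and 4 other HERC ligases passed 2-fold. This held in siOCLN+LPS over LPS, wtOCLN+LPS over LPS and siOCLN+LPS over wtOCLN+LPS. These list counts were not repeated under other scalings. UBL5 lay close enough to the limit over LPS for its call to depend on the scaling. Beside the shares given above, 3.69% of tested genes were lower in wtOCLN+LPS over LPS and 0.0763% were higher in siOCLN+LPS over wtOCLN+LPS. Of 44 tested ubiquitin-specific proteases only USP53 passed over LPS, lower in siOCLN+LPS (0.392-fold, 0.329 to 0.465), where 3.92% of tested genes were lower. Among the modifiers UBL5 had the highest log2(CPM + 1) difference over LPS, 0.92 in siOCLN+LPS and 0.88 in wtOCLN+LPS, and NEDD8 had 0.70 and 0.61. The list medians in siOCLN+LPS over LPS were 0.12 for modifiers, -0.03 for E1, -0.03 for E2, 0.06 for HERC ligases and -0.28 for proteases.

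UBE2L3, the ubiquitin E2 enzyme most like UBE2L6, was at 119 CPM in siOCLN+LPS, 119 CPM in wtOCLN+LPS, 97.3 CPM in LPS and 110.1 CPM in control, 1.22-fold over LPS in both transfected libraries. UBA1, the main ubiquitin E1 enzyme, was at 316 CPM in siOCLN+LPS, 309 CPM in wtOCLN+LPS, 274 CPM in LPS and 283 CPM in control. HERC3, a related ligase, was at 22.4 CPM in siOCLN+LPS, 24.8 CPM in wtOCLN+LPS, 17.1 CPM in LPS and 21.2 CPM in control. Each of these stayed within 1.5-fold of LPS, where UBE2L6, UBA7 and HERC6 reached 2.24, 2.23 and 8.39-fold in wtOCLN+LPS.

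**Figure D5:**
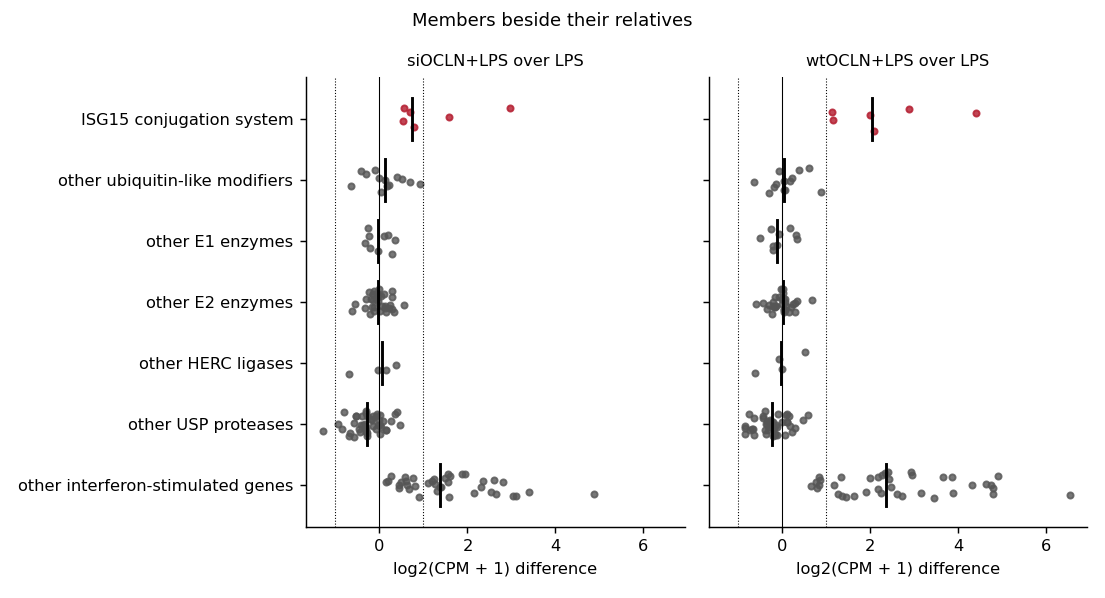
Differences in log2(CPM + 1) over LPS in siOCLN+LPS (left) and wtOCLN+LPS (right), 1 point per gene, for the 6 genes, 5 lists of relatives and other interferon-stimulated genes; thick bars are list medians and dotted lines 2-fold. Relatives gather near 0, while the 6 genes have medians of 0.74 and 2.04 and the other interferon-stimulated genes 1.38 and 2.37.

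RNAs of proteins that ISG15 acts with outside its own relay mostly stayed within 2-fold of LPS, as most tested genes did. Of 7 tested partners none passed 2-fold in siOCLN+LPS over LPS, where 3.32% of tested genes were higher and 3.92% lower. In wtOCLN+LPS over LPS, where 3.32% were higher and 3.69% lower, ITGB2 passed at 2.92-fold (2.34 to 3.67). ITGB2 is a subunit of the integrin that binds secreted ISG15. RNF213, a large ligase that binds ISG15-modified proteins, was 1.22-fold in siOCLN+LPS over LPS and 1.90-fold in wtOCLN+LPS over LPS. TRIM25, a ligase for both ubiquitin and ISG15, differed in kind: it was at 189 CPM in siOCLN+LPS, 212 CPM in wtOCLN+LPS, 243 CPM in LPS and 122 CPM in control. By library total its ratio of LPS over control was 1.99 (1.88 to 2.10), just under the 2-fold limit. On the same scale none of the 6 genes was higher in LPS than in control (UBE2L6 reached 1.03 under other scalings). RNF213 in wtOCLN+LPS over LPS and TRIM25 in LPS over control lay close enough to the limit for their calls to depend on the scaling. Among RNAs of 18 proteins reported to carry ISG15, those of the antiviral effectors MX1 and IFIT1 passed 2-fold over LPS in siOCLN+LPS (8.62 and 5.58-fold). Those higher in wtOCLN+LPS over LPS included MX1 (29.2-fold), IFIT1 (12.2-fold) and the RNA sensor DDX58 (2.30-fold).

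Among signalling genes that act before ISG15, IRF9 and IRF7 were also highest in wtOCLN+LPS and next highest in siOCLN+LPS. IRF9, a transcription factor of interferon signalling, was at 47.3 CPM in siOCLN+LPS, 80.5 CPM in wtOCLN+LPS, 24.3 CPM in LPS and 29.3 CPM in control. By library total it was past 2-fold over LPS in wtOCLN+LPS (3.31-fold) and not in siOCLN+LPS (1.94-fold). The latter lay close enough to the limit for its call to depend on the scaling. IRF7, which amplifies interferon production, was 3.26-fold over LPS in wtOCLN+LPS and was lower in siOCLN+LPS than in wtOCLN+LPS (0.440, 0.401 to 0.482). STAT2 was 1.04-fold in siOCLN+LPS over LPS (0.959 to 1.12) and 1.47-fold in wtOCLN+LPS over LPS. IRF1 behaved otherwise: it was 5.20-fold higher in LPS than in control, where the 6 genes were not, and 2.23-fold in siOCLN+LPS and 2.18-fold in wtOCLN+LPS over LPS. Of 38 other interferon-stimulated genes 25 were higher over LPS in siOCLN+LPS and 32 in wtOCLN+LPS. In each pair 3.32% of tested genes were higher. The median log2(CPM + 1) differences of the list were 1.38 and 2.37. In siOCLN+LPS over wtOCLN+LPS 17 were lower, where 0.29% of tested genes were. These counts include MX2, RSAD2 and CMPK2, which were below 1 CPM in LPS and control. They passed the filter only through the transfected libraries.

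Interferon transcripts were scarce. IFNB1 had 0 counts in siOCLN+LPS, 1 in wtOCLN+LPS and 0 in LPS and control, and IFNL1 had 0 counts in siOCLN+LPS, 7 in wtOCLN+LPS and 0 in LPS and control. IFNL3 and IFNG had 0 counts in all 4 libraries, where a count of 0, taken to allow 3 counts, allows up to 0.172 CPM in siOCLN+LPS, 0.171 CPM in wtOCLN+LPS, 0.216 CPM in LPS and 0.189 CPM in control. IFNE, a constitutive epithelial interferon and the sole ligand past the filter, was lower in wtOCLN+LPS than in LPS (55 and 105 counts, 0.415-fold).

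Genes nearest in pattern to the mean of the 6 were found by Euclidean distance between log2(CPM + 1) values centred over the 4 libraries, among 11417 genes at 5 CPM or more in at least 1 library. PARP9 was nearest (distance 0.139), at 56.1 CPM in siOCLN+LPS, 119 CPM in wtOCLN+LPS, 25.4 CPM in LPS and 31.4 CPM in control. DDX60L (0.162), TRIM22 (0.171), BST2 (0.204) and LGALS9 (0.212) followed. The members differed in their own nearest gene: MX1 for ISG15, SAMD9L for HERC6, IRF7 for HERC5, PLSCR1 for USP18, SORBS2 for UBA7 and PLSCR4 for UBE2L6. With 4 libraries such likeness is only a description. HERC5 and HERC6 are adjacent coding genes on chromosome 4. The coding genes beside ISG15, HES4 and AGRN, stayed within 2-fold of LPS, with HES4 at 0.939 in siOCLN+LPS and 1.26 in wtOCLN+LPS, and AGRN at 1.29 and 1.54. ISG15 also has an antisense gene in GENCODE, which was not analysed here, and the strand setting of the counting is not given in the sources used here, so reads of the pair cannot be told apart.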

How the data were processed

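Per the labels' protocols, 4 BEAS-2B libraries, 1 per group, were made with a strand-specific kit from 1.3 µg of RNA each. The authors deposited whole-number read counts for 24424 gene symbols. The submitters' processing notes name TopHat, Cufflinks and the build hg19 with no role. Not given in the sources used here are the counter, its strand setting and its handling of reads that match several genes. Groups came from the labelled treatment.

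CPM was computed from library totals. CPM has exact Poisson and ratios exact Clopper-Pearson 95% intervals, which cover counting error only. Genes reaching 1 CPM in at least 1 library of a pair were compared as log2(CPM + 1), which understates the change of low genes, and counted when 2-fold apart. A single library per group leaves no spread for edgeR's quasi-likelihood test, so no p-value is given. edgeR 4.0.16 in R 4.3.3 gave TMM and upper quartile factors. Python 3.11.15, NumPy 2.4.6 and SciPy 1.17.1 did the rest. The code for the calls was run on simulated Poisson counts, which hold no spread between replicates and so do not test the calls made here. Lengths and stretches of 50 bases shared between transcripts came from GENCODE 29, and promoters from RefSeq GRCh38.p14.

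The members, gene lists and tests were chosen with earlier results of these data known. All 6 members were named, with up to 4 tested genes of largest absolute difference over LPS from each list, the closest relatives, the 5 nearest genes in pattern and the neighbouring genes. Some genes of the lists are not reported here.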

Additional observations from a re-analysis of the deposited data

How the results depend on the processing

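No paired analysis was possible because each group held 1 library. No called fold of the genes recomputed changed direction under another setting. UBE2L6 in LPS over control, which was not called, was at 0.959 by library total, and at 1.03 by median ratio, 1.02 by upper quartile and 1.02 by TMM scaling. With 1 library per group no value has a replicate check. Depth limits genes with few counts, among them most interferon ligands, and RSAD2 (7 counts in LPS), MX2 (8) and CMPK2 (4), whose folds over LPS rest on those counts. The comparison of proteins was not run for want of protein sequences, nor was a sum of USP18 with USP41, which was not analysed here. Ratios of folds, the order with a second transcript model, and the split of called genes by scaling were chosen after seeing the data; the order per kb was the same with either model. A pseudocount of 0.1 kept 4 of the 5 nearest genes and a pseudocount of 5 kept 2. Among fold values, 26 of the members' moved by more than counting error and 82 did not.

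Of the 6 genes, those counted in siOCLN+LPS over LPS became 4 at 1.5-fold and 1 at 3-fold. In siOCLN+LPS over wtOCLN+LPS they became 0 at 3-fold, and in siOCLN+LPS over control 1 with a pseudocount of 5 and 1 at 3-fold; the other settings left the members' counts within 1.5 times. Over all genes, those higher in siOCLN+LPS over LPS numbered 449, and 226 with a pseudocount of 5, 1227 at 1.5-fold and 123 at 3-fold. Those lower numbered 530, and 932 and 189 with pseudocounts of 0.1 and 5, 2061 at 1.5-fold and 105 at 3-fold. In wtOCLN+LPS over LPS those higher numbered 448, and 254 with a pseudocount of 5, 1159 at 1.5-fold and 144 at 3-fold. Those lower numbered 498, and 925 and 173 with pseudocounts of 0.1 and 5, 2036 at 1.5-fold and 92 at 3-fold. In siOCLN+LPS over wtOCLN+LPS those higher numbered 10, and 79 and 1 with pseudocounts of 0.1 and 5, 4 with a filter at 5 CPM, 99 at 1.5-fold and 2 at 3-fold. Those lower numbered 38, and 82 and 21 with pseudocounts of 0.1 and 5, 156 at 1.5-fold and 8 at 3-fold. In LPS over control those higher numbered 217, and 135 with a pseudocount of 5, 467 at 1.5-fold and 91 at 3-fold. Those lower numbered 28, and 188 and 1 with pseudocounts of 0.1 and 5, 13 with a filter at 5 CPM, 379 at 1.5-fold and 3 at 3-fold. In siOCLN+LPS over control those higher numbered 535, and 315 with a pseudocount of 5, 1210 at 1.5-fold and 205 at 3-fold. Those lower numbered 739, and 1251 and 237 with pseudocounts of 0.1 and 5, 2931 at 1.5-fold, 106 at 3-fold, and 363, 412 and 365 by median ratio, upper quartile and TMM scaling. In wtOCLN+LPS over control those higher numbered 531, and 1151 at 1.5-fold and 221 at 3-fold. Those lower numbered 666, and 1221 and 198 with pseudocounts of 0.1 and 5, 2933 at 1.5-fold, 88 at 3-fold, and 322, 381 and 322 by the same scalings. Beyond the construction of each setting, the cause was not tested.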

Other observations

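Fibroblast markers at or above 1 CPM numbered 2 of 7, with summed levels of 122 CPM in siOCLN+LPS, 124 CPM in wtOCLN+LPS, 116 CPM in LPS and 139.65 CPM in control. Endothelial markers summed to 1.54 CPM in siOCLN+LPS, 1.54 CPM in wtOCLN+LPS, 1.59 CPM in LPS and 0.441 CPM in control. USP43 was past 2-fold higher in LPS over control, 1 of 44 tested ubiquitin-specific proteases, where 1.6% of tested genes were higher and 0.207% lower. No other relative of the 6 genes passed there by library total: 0 of 13 tested modifiers, 9 other E1 enzymes, 33 other E2 enzymes and 4 other HERC ligases.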
